A study of Mus musculus with 8 samples.

Results

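Transthyretin (Ttr) and 8 genes that handle or respond to thyroid hormone were followed in the mouse frontal cortex with and without HAR123. These 9 genes, out of 55536 in the count table, were picked by symbol: Ttr because its count differed between the genotypes in these same libraries, and Slco1c1, Dio2, Thra, Thrb, Klf9, Hr, Ncor1 and Ncoa1 for their roles. The question was whether the difference in Ttr came with any change in the hormone's uptake, activation, receptors or target genes.

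RNA was taken from the frontal cortex of mice aged 8 weeks, with 4 WT and 4 HAR123-KO libraries. HAR123 is an enhancer in an intron of Smg6 whose human copy changed fast after the split from chimpanzees, and HAR123-KO mice lack the mouse counterpart in every cell after Cas9 cutting in C57BL/6J embryos. Per the study's methods, controls were WT littermates and strains were backcrossed to C57BL/6J. The labels give replicate numbers but do not say that each library is a separate animal, so p-values measure the spread between libraries. Since HAR123 lies in an intron, counts over exons carry no check of the deletion itself.

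Thyroid hormone reaches the brain mainly as thyroxine (T4), a prohormone, and acts as triiodothyronine (T3). In the brain, Ttr is made by the epithelium of the choroid plexus, which secretes it into the cerebrospinal fluid, where it carries T4 and also retinol with its binding protein. T4 crosses the blood-brain barrier through transporters, is converted to T3 in astrocytes by the deiodinase Dio2, and T3 binds the nuclear receptors Thra and Thrb, which hold corepressors without hormone and coactivators with it. Neurons of the cortex respond to T3 by changing a known set of target genes.

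Libraries held 13528251 to 17051001 counts in total, of which 55.1% to 58.0% fell on Gm42418, a gene that overlaps ribosomal RNA sequence, and nuclear protein-coding genes other than Lars2 received 2786320 to 3732172. All 10 cortical neuron markers were detected, and their normalized counts (counts divided by a size factor per library) summed to 31361 to 31706 in WT and 30212 to 30544 in HAR123-KO. Fewer cells of a type and less RNA per cell cannot be told apart in such whole-tissue libraries. Differences below are log2 fold changes of HAR123-KO against WT with their standard error (SE) from DESeq2, and a gene was called where p, adjusted over the 12758 genes tested, was under 0.05. Of these, 1.69% were called in either direction, and the median log2 fold change of all tested genes was -0.00, with the middle 50% between -0.09 and 0.08.

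Ttr (ENSMUSG00000061808, chromosome 18, 20665280 to 20674321, plus strand, GRCm38) had normalized counts of 65.3, 74.1, 62.7 and 70.6 in the 4 WT libraries and 651, 661, 616 and 637 in the 4 HAR123-KO libraries. Every HAR123-KO library lay far above every WT library, and the spread within each genotype was small, at 68.2 ± 5.15 against 641 ± 19.4 (SD, n = 4). The ratio of means was 9.41 and the log2 fold change 3.24 ± 0.10 (SE). Since Ttr was chosen for this difference, the values are a description and no test is attached to them. Leaving out any library moved its log2 fold change only between 3.19 and 3.28.

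**Figure D1:**
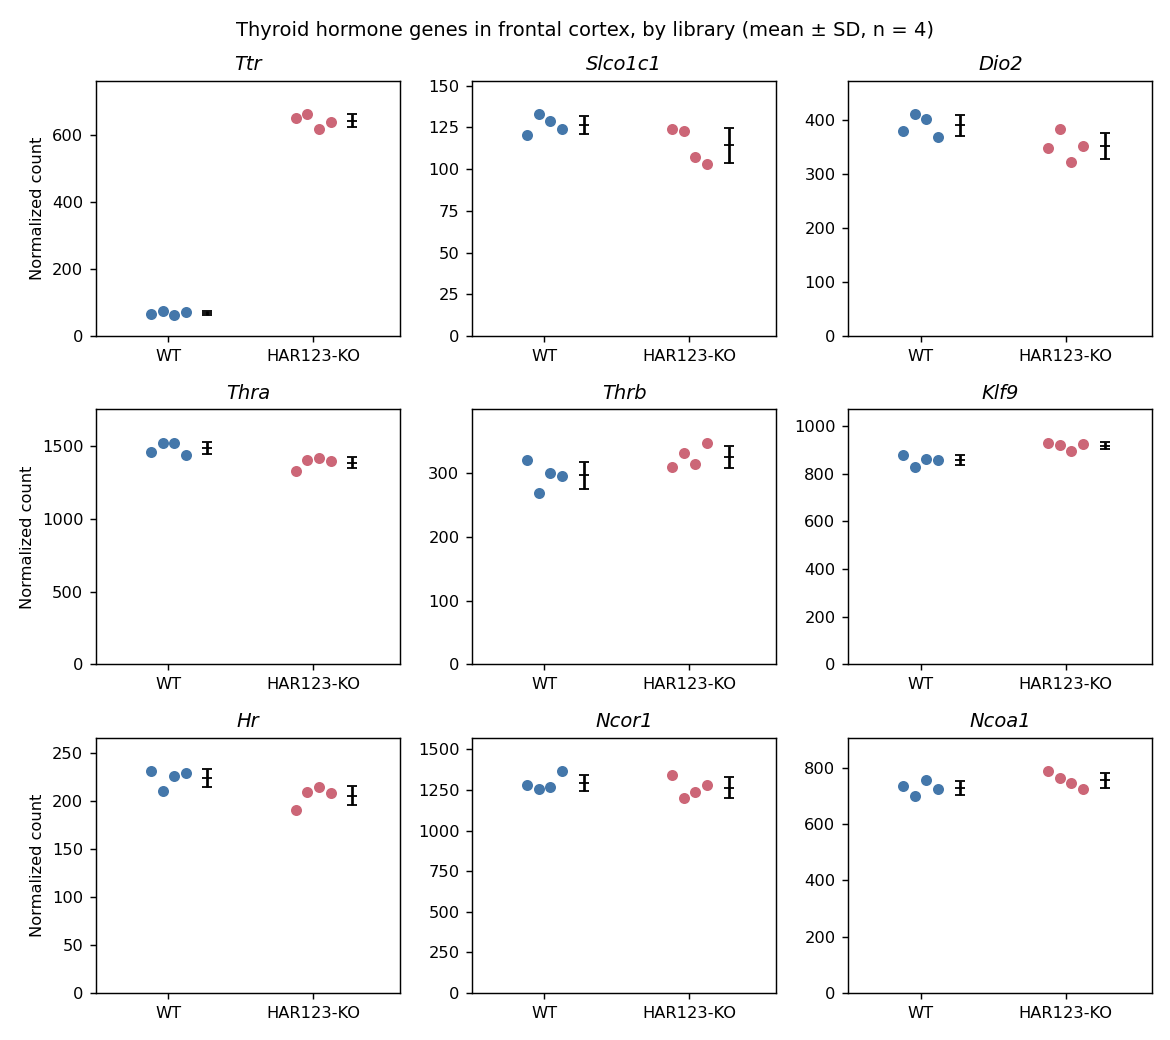
Normalized counts of the 9 genes in each library, with WT in blue and HAR123-KO in red; bars give the mean ± SD of 4 libraries and every vertical axis starts at 0. Ttr lies at 62.7 to 74.1 in WT and 616 to 661 in HAR123-KO, while the other 8 genes stay near their WT level.

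Of 19 markers of the choroid plexus epithelium, Ttr not among them, 3 had an adjusted p from DESeq2 and 7 from edgeR. DESeq2 called 2 of the 3 (Enpp2 and Kl) higher, and edgeR and limma-voom each called 6 of the 7, beside 2.28% and 2% of all genes tested. Of the 7, all but Enpp2 and Slc13a4 reached the count minimum through the HAR123-KO libraries, where they were high, so these counts are a description and support nothing. Over all 19, called or not, the mean was higher in HAR123-KO in 19 and the genotypes did not overlap in 13, beside 4.02% of the genes with an adjusted p from DESeq2, which 16 of the 19 are not among. Their summed normalized counts ran from 962 to 1007 in WT and from 1371 to 1489 in HAR123-KO. The sum was dominated by Enpp2 (autotaxin), which oligodendrocytes also make, and Slc13a4 is also made in the meninges. Without Enpp2 and Slc13a4, a choice made after their values were seen, the other 17 markers summed to 43.9 to 61.8 in WT and 181 to 208 in HAR123-KO, a ratio of means of 3.54. The part of choroid plexus RNA in the Ttr difference was not tested.

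Of the 3 choroid plexus markers with the highest counts, Enpp2 had normalized counts of 893, 858, 916 and 890 in WT and 1231, 1179, 1239 and 1141 in HAR123-KO. It rose by a log2 fold change of 0.43 ± 0.04 (SE, adjusted p = 5.41e-20 by DESeq2). Markers of oligodendrocytes also summed higher, at 16105 to 16611 in WT and 18237 to 18554 in HAR123-KO, with 4 of 12 called higher and 0 called lower (0.972% and 0.713% of all genes). Slc13a4, a sulfate transporter, had a WT mean of 42.4 ± 3.76 and a HAR123-KO mean of 44.4 ± 11.6 (SD over 4 libraries, adjusted p = 0.984 by DESeq2). Kl, which encodes Klotho, had 4.50, 9.27, 6.78 and 16.05 normalized counts in WT and 38.9, 36.1, 37.0 and 31.9 in HAR123-KO. The genotypes did not overlap, and the log2 fold change was 1.99 ± 0.32 (SE, adjusted p = 3.89e-07 by DESeq2). With a WT mean of 9.15, Kl passed the DESeq2 filter, a mean of 17.6 normalized counts, only through its HAR123-KO counts. Without WT replicate 3 or 4 or HAR123-KO replicate 1 or 4, Kl had no adjusted p from DESeq2, while its log2 fold change stayed between 1.85 and 2.38.

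Of the 19 markers, 4 were close to absent from WT. Kcne2, Otx2, Sostdc1 and Steap1 had 0 counts in 3 of the 4 WT libraries, where 0 allows up to 3 counts per library. Otx2, the transcription factor of this epithelium, had raw counts of 0, 0, 1 and 0 in WT and 3, 5, 9 and 4 in HAR123-KO. Kcne2, a potassium channel subunit, had 0, 0, 1 and 0 in WT and 3, 1, 3 and 4 in HAR123-KO. Otx2 and Kcne2 were thus seen in every HAR123-KO library. Sostdc1 had raw counts of 3, 0, 0 and 0 in WT and 8, 2, 7 and 6 in HAR123-KO, and Steap1 had 0, 2, 0 and 0 in WT and 4, 0, 3 and 0 in HAR123-KO, so both overlapped between genotypes. All 4 had too few counts for an adjusted p. Other markers were counted in every WT library, such as Clic6, with raw counts of 8, 5, 15 and 4 in WT and 28, 23, 28 and 21 in HAR123-KO.

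The 3 genes whose profile over the 8 libraries was most like that of Ttr were Tmem72, Kl and F5, out of 14464 genes whose mean reached 10 normalized counts. Likeness was the distance between log2(normalized count + 1) values centred on the WT mean, which was 2.62 for Tmem72, 2.70 for Kl and 2.71 for F5, against a median of 6.45 over all genes. Since the measure holds the genotype difference that chose Ttr, and these genes reached the mean of 10 through the HAR123-KO libraries, this likeness is a description and supports nothing further. Tmem72 had normalized counts of 1.13, 12.4, 0.847 and 2.14 in WT and 17.4, 15.2, 18.5 and 29.8 in HAR123-KO, so WT replicate 2 stood apart, and its log2 fold change of 2.30 ± 0.80 (SE) became 3.91 without that library. F5, coagulation factor V, had 2.25, 4.12, 4.24 and 4.28 in WT and 17.4, 11.4, 35.2 and 14.9 in HAR123-KO.

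**Figure D2:**
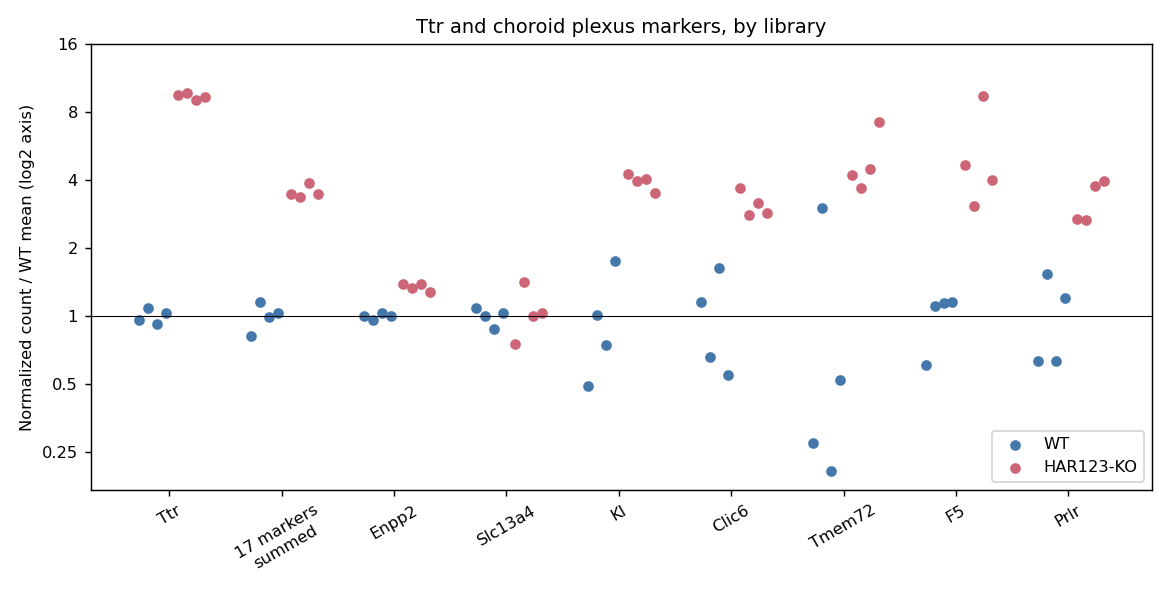
Normalized count of each library divided by the WT mean, on a log2 axis, for Ttr, the sum of 17 choroid plexus markers without Enpp2 and Slc13a4, and each single marker whose mean reached 10 normalized counts. The HAR123-KO libraries lie above the WT libraries for Ttr, the sum and each marker but Slc13a4, whose genotypes overlap; apart from Enpp2 and Slc13a4, the single markers reached that mean through the HAR123-KO libraries.

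Compared per length, Ttr changed its place among the 9 genes. In WT the order by normalized counts per kb of exon was Thra (322 ± 8.83), Klf9 (178 ± 4.17), Ncor1 (101 ± 3.85), Ncoa1 (84.9 ± 2.87), Dio2 (67.0 ± 3.32), Ttr (57.5 ± 4.34), Thrb (40.0 ± 2.84), Hr (32.4 ± 1.37) and Slco1c1 (24.4 ± 1.04), each as mean ± SD of 4 libraries. In HAR123-KO, Ttr stood first with 541 ± 16.3 per kb and the other 8 kept their order. No neighbours in either order overlapped between libraries. Exon lengths cover all annotated transcripts of a gene, so the level of a gene that uses few of its exons is understated.

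**Figure D3:**
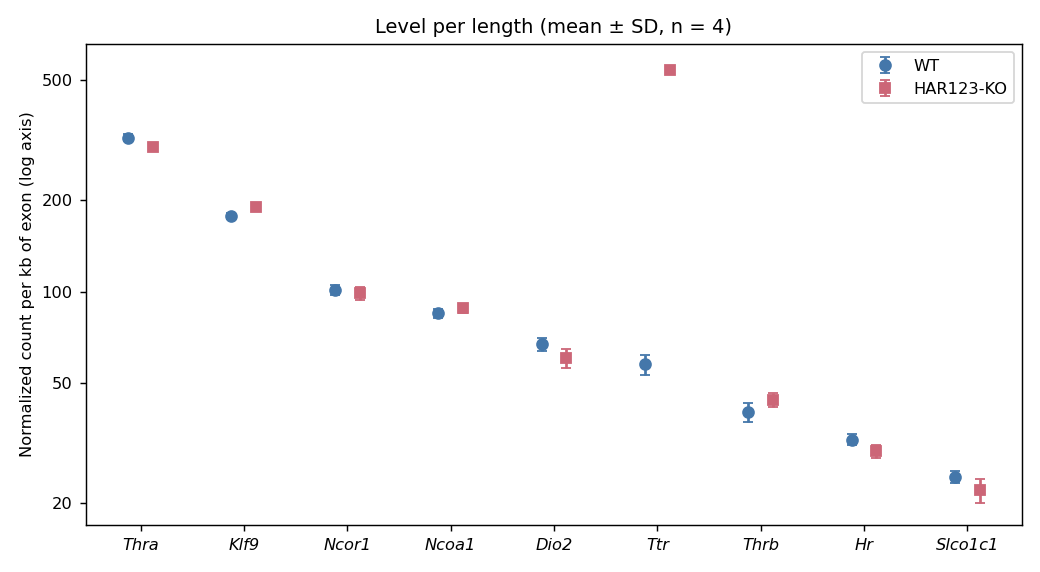
Normalized count per kb of exon for the 9 genes, on a log axis, ordered by the WT level; circles (WT) and squares (HAR123-KO) are means and bars the SD of 4 libraries. Ttr goes from 57.5 to 541, and the other 8 genes keep their order.

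None of the 8 other genes was called. The count was 0 of 8 by DESeq2, by edgeR's quasi-likelihood test and by limma-voom, where 1.69%, 2.28% and 2% of all genes tested were called. With the added minimum of 0.5 in size that the study set for the log2 fold change in this tissue, it was also 0 of 8, against 0.298% of all genes. At an unadjusted p under 0.05 there were 3 of 8 (Dio2, Thra and Klf9), against 8.78% of all genes. The genotypes did not overlap in 2 of 8 (Thra, lower, and Klf9, higher), against 4.02% of all genes higher and 3.65% lower, 7.67% in all. Their log2 fold changes ran from -0.15 to 0.14, and the 95% intervals together reached from a decrease by 23.2% (Slco1c1) to an increase of 21.7% (Thrb).

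Slco1c1 (ENSMUSG00000030235, chromosome 6, 141524368 to 141570177, plus strand) encodes a T4 transporter of brain endothelium and astrocytes. It had normalized counts of 120.5, 133, 129 and 124 in WT and 124, 123, 107 and 103 in HAR123-KO. Replicates 3 and 4 of HAR123-KO lay below all WT libraries and the other 2 within their range. Its log2 fold change was -0.15 ± 0.12 (SE, adjusted p = 0.843 by DESeq2).

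Dio2 (ENSMUSG00000007682, chromosome 12, 90724552 to 90738438, minus strand), which makes T3 from T4, had normalized counts of 379, 410, 402 and 368 in WT and 347, 382, 322 and 352 in HAR123-KO. The genotypes overlapped, with HAR123-KO replicate 2 inside the WT range, and the log2 fold change was -0.15 ± 0.07 (SE, adjusted p = 0.442 by DESeq2). Its exons share 100 bases with the antisense gene Gm26512, which had a mean of 9.94 normalized counts.

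Markers of astrocytes and endothelium, the cells known to carry Slco1c1 and Dio2, were examined beside them. Astrocyte markers summed to 24732 to 25430 normalized counts in WT and 22986 to 23633 in HAR123-KO, with 3 of 12 (Slc1a2, Slc1a3 and Gja1) called lower and 0 called higher (0.713% and 0.972% of all genes). Most of that sum was the glutamate transporter Slc1a2, with a mean of 18760 in WT and 17454 in HAR123-KO, and Gfap had a log2 fold change of 0.16 ± 0.08 (SE) without a call. Endothelial markers summed to 601 to 615 in WT and 491 to 543 in HAR123-KO, with 0 of the 10 that had an adjusted p called in either direction by DESeq2, 3 of the 12 at an unadjusted p under 0.05 (8.78% of all genes) and 0 of 12 by edgeR. The part of these markers in the values of Slco1c1 and Dio2 was not tested.

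Thra (ENSMUSG00000058756, chromosome 11, 98740638 to 98769006, plus strand), the main T3 receptor gene of the brain, had normalized counts of 1462, 1519, 1523 and 1441 in WT and 1329, 1403, 1417 and 1394 in HAR123-KO. All HAR123-KO libraries lay below all WT libraries by a small margin. The log2 fold change was -0.10 ± 0.04 (SE, adjusted p = 0.212 by DESeq2). Thra also encodes a splice form that does not bind hormone, which a count per gene does not separate. Its exons share 263 bases, 5.70% of their length, with Nr1d1 on the opposite strand, a clock gene whose mean normalized count went from 419 ± 27.8 to 453 ± 8.08 (SD over 4 libraries, adjusted p = 0.666 by DESeq2). How strand was handled at counting is not given in the sources used here.

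Thrb (ENSMUSG00000021779, chromosome 14, 17660261 to 18038090, plus strand), the other T3 receptor gene, had normalized counts of 320, 269, 300 and 295 in WT and 309, 331, 313 and 347 in HAR123-KO. The genotypes overlapped through WT replicate 1. The log2 fold change was 0.14 ± 0.08 (SE, adjusted p = 0.632 by DESeq2).

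The balance of the receptors was compared within each library as a ratio of counts per kb, which is free of the size factor. Thra to Thrb was 7.34, 9.07, 8.14 and 7.83 in WT and 6.90, 6.81, 7.26 and 6.45 in HAR123-KO, and all 4 HAR123-KO libraries lay below all WT libraries. The log2 ratio averaged 3.01 ± 0.13 over the WT libraries and 2.78 ± 0.07 over the HAR123-KO libraries (SD, n = 4). The difference was -0.24. The two-sided exact permutation p was 0.0286, the smallest this design allows, and 0.0571 after adjustment over the 2 ratios tested, which did not pass. Without WT replicate 2 the difference was -0.18 (exact permutation p = 0.0571). The exact permutation p was also 0.0571 without any single HAR123-KO library, and 0.0286 without WT replicate 1, 3 or 4.

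Coregulators showed smaller differences. Ncor1 (ENSMUSG00000018501, chromosome 11, 62316426 to 62458541, minus strand), a corepressor of unliganded receptors, had normalized counts of 1280, 1258, 1269 and 1366 in WT and 1344, 1198, 1239 and 1279 in HAR123-KO, with a log2 fold change of -0.03 ± 0.04 (SE, adjusted p = 0.939 by DESeq2). Ncoa1 (ENSMUSG00000020647, chromosome 12, 4247362 to 4477182, minus strand), a coactivator, had 734, 698, 757 and 724 in WT and 787, 762, 745 and 724 in HAR123-KO, with a log2 fold change of 0.05 ± 0.05 (SE, adjusted p = 0.903 by DESeq2). Both overlapped between genotypes. The log2 ratio of Ncoa1 to Ncor1 per kb was -0.25 ± 0.07 (SD, n = 4) over the WT libraries and -0.17 ± 0.07 over those of HAR123-KO (two-sided exact permutation p = 0.171). Ncor1 shares 82 exon bases with Pigl and 1 with Ttc19, and Ncoa1 shares 68 with 4921501I09Rik, all on the opposite strand and each under 1% of the exon length.

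Beyond the 9 genes, 24 others of the pathway were listed by role, as carriers and transporters, deiodinases and T3 binders, receptor partners, corepressors and coactivators. Of these, 19 had an adjusted p, 0 were called higher and 1 lower, against 0.972% and 0.713% of all genes tested. At an unadjusted p under 0.05 there were 5 of the 24, against 8.78% of all genes. Among the 19, 1 was higher and 2 were lower without overlap between genotypes, against 4.02% and 3.65% of all genes. The plasma carrier Serpina7 and the deiodinase Dio1 had 0 counts in all 8 libraries, the carrier Alb had at most 1 raw count, and Dio3, which inactivates the hormone, had 0 to 4 in WT and 0 to 2 in HAR123-KO. No other carrier of the hormone in blood was thus measurable beside Ttr. The median log2 fold change of the 19 was 0.06, beside -0.00 over all genes.

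Slc7a5 and Rxrg had small p-values without a call. Slc7a5, a transporter of large amino acids that also takes up thyroid hormone at the blood-brain barrier, had normalized counts of 178, 164, 188 and 140 in WT and 142, 142, 126 and 125.5 in HAR123-KO, so that WT replicate 4 fell within the HAR123-KO range. Its log2 fold change was -0.33 ± 0.11 (SE, adjusted p = 0.122 by DESeq2), and it was called by edgeR (edgeR adjusted p = 0.0366) and by DESeq2 without WT replicate 4 (adjusted p = 0.0358). Rxrg, a partner of the receptors, had 65.3, 72.1, 79.6 and 84.5 in WT and 82.9, 103, 103 and 113 in HAR123-KO, with a log2 fold change of 0.41 ± 0.14 (SE, adjusted p = 0.156 by DESeq2). Rxrg is most abundant in the striatum, and markers of striatal projection neurons summed to 6582 to 6825 normalized counts in WT and 8503 to 8701 in HAR123-KO, with 10 of 14 called higher (0.972% of all genes); their part in the value of Rxrg was not tested.

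**Figure D4:**
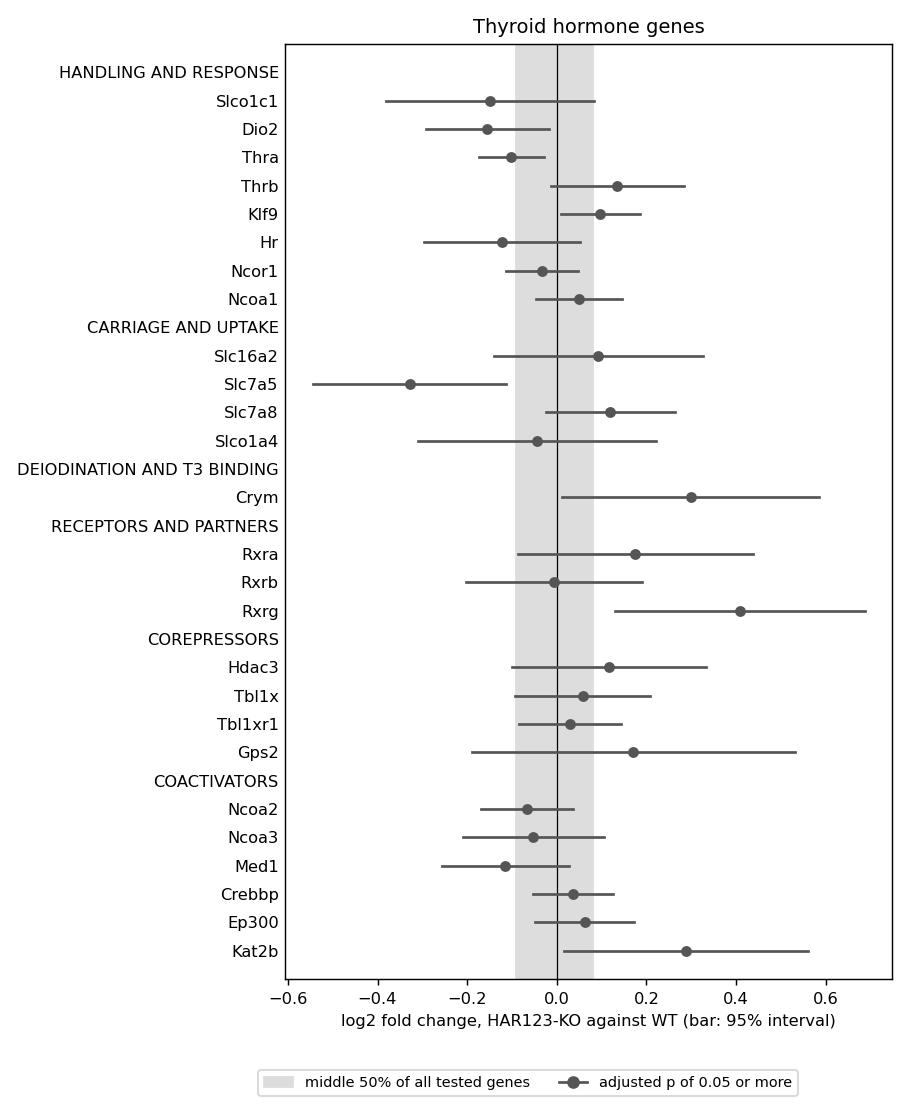
Log2 fold change of HAR123-KO against WT (points) with its 95% interval (bars) for thyroid hormone genes that had an adjusted p, grouped by role, with Ttr among those not drawn; the grey band holds the middle 50% of all tested genes. None of the genes drawn was called, and Rxrg (0.41) and Slc7a5 (-0.33) lie farthest from 0.

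The target genes were examined next. Klf9 (ENSMUSG00000033863, chromosome 19, 23141226 to 23168134, plus strand), a transcription factor that T3 induces in neurons, had normalized counts of 878, 830, 862 and 858 in WT and 930, 920, 895 and 923 in HAR123-KO. All HAR123-KO libraries lay above all WT libraries. The log2 fold change was 0.10 ± 0.04 (SE, adjusted p = 0.457 by DESeq2), with a 95% interval of 0.01 to 0.18. Glucocorticoids also induce Klf9. Of the 13 glucocorticoid response genes listed, 11 had an adjusted p, with Per1 called higher and Mt2 lower (0.972% and 0.713% of all genes). An unadjusted p under 0.05 was found for 6 of the 13, against 8.78% of all genes. Without overlap between genotypes, 4 were higher and 2 lower, against 4.02% and 3.65% of all genes. The median log2 fold change of the 11 was 0.19. The summed counts overlapped, at 1782 to 1867 in WT and 1844 to 1925 in HAR123-KO. The part of these genes in the value of Klf9 was not tested.

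Hr (ENSMUSG00000022096, chromosome 14, 70552212 to 70573548, plus strand), a corepressor that is itself strongly induced by T3 in the brain, had normalized counts of 231, 210, 226 and 229 in WT and 190, 209, 214 and 208 in HAR123-KO. Only HAR123-KO replicate 3 reached the WT range. The log2 fold change was -0.12 ± 0.09 (SE, adjusted p = 0.795 by DESeq2), with a 95% interval of -0.30 to 0.05. The means of Klf9 and Hr thus differed in opposite directions, and neither passed the test.

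A list of 13 genes known to rise with T3 in rodent brain, Klf9 and Hr included, gave 10 genes with an adjusted p, of which 0 were called higher and 1 lower, against 0.972% and 0.713% of all genes. At an unadjusted p under 0.05 there were 6, against 8.78% of all genes. Of the 13, 4 had a higher mean in HAR123-KO and 9 a lower one. The median log2 fold change of the 10 was -0.12, with a range from -0.42 to 0.17. Flywch2, Cbr2 and Shh had too few counts for an adjusted p.

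The gene called was Nrgn, which encodes neurogranin, a calmodulin-binding protein of excitatory neurons. It had normalized counts of 3856, 3641, 3671 and 3843 in WT and 3256, 3474, 3312 and 3565 in HAR123-KO, without overlap. It fell by 0.14 on the log2 scale (SE 0.03, adjusted p = 0.000714 by DESeq2, 0.00478 by edgeR), and leaving out any library kept the call. Of the 10 cortical neuron markers, 3 were also called lower and 0 higher (0.713% and 0.972% of all genes), and as given above their summed level was lower in HAR123-KO without overlap; their part in the fall of Nrgn was not tested.

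T3 receptors bind repeats of the hexamer AGGTCA, so the 250 bases before the start of each gene were searched for it on both strands, in RefSeq promoter sequences of GRCm38.p6. Of the 29 genes of the 9 and the T3 lists, 18 had an entry, with 23 windows. The hexamer was in 1 of the 23, a start of Thrb, against 4607 of 32851 windows of all genes, and the direct repeat of AGGTCA, any 4 bases and AGGTCA was in 0 of the 23, against 0.0152% of all windows. Shown here, 5′ to 3′, are the windows of Klf9 (chr19:23140976-23141225, plus strand) and Nrgn (chr9:37552746-37552995, minus strand), T3-raised genes that differed in opposite directions, and that start of Thrb (chr14:17660710-17660959, plus strand), with the hexamer in capitals, 184 bases before the start. The absence of these letters from a window says nothing about the receptors elsewhere in the gene.
Klf9: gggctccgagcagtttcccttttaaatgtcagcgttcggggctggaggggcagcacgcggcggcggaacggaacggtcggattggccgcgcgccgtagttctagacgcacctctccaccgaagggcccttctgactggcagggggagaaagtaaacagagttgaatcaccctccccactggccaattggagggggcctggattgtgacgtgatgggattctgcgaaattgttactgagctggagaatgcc
Nrgn: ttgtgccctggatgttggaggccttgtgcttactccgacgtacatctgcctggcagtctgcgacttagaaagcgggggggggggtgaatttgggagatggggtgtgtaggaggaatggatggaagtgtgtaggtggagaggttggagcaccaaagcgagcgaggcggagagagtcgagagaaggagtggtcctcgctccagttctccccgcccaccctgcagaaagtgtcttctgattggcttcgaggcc
Thrb: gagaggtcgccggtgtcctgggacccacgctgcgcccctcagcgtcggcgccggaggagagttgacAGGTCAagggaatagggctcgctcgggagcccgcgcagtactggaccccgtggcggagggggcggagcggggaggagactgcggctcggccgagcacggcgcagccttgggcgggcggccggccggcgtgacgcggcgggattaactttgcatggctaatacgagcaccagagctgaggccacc

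Next by p-value were Camk4 and Nefm. Camk4, a calmodulin-dependent kinase, had 609, 543, 514 and 509 normalized counts in WT and 652, 600.0, 622 and 558 in HAR123-KO, with a log2 fold change of 0.17 ± 0.06 (SE, adjusted p = 0.193 by DESeq2). Nefm, a neurofilament subunit, had 858, 859, 864 and 932 in WT and 739, 861, 807 and 802 in HAR123-KO, with a log2 fold change of -0.13 ± 0.05 (SE, adjusted p = 0.242 by DESeq2). Both overlapped between genotypes.

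Among 9 genes known to fall with T3 in rodent brain, 5 had an adjusted p and 0 were called by DESeq2 or limma-voom (1.69% and 2% of all genes). An unadjusted p under 0.05 was found for 1 (8.78% of all genes), and edgeR called 1 (2.28%). The gene called by edgeR was Cirbp, a cold-inducible RNA-binding protein, with 135, 142, 134 and 132 normalized counts in WT and 167, 153, 169 and 184 in HAR123-KO, without overlap. Its log2 fold change was 0.31 ± 0.11 (SE, adjusted p = 0.142 by DESeq2, 0.0409 by edgeR). Mamdc2 had 3.38, 4.12, 4.24 and 4.28 in WT and 9.21, 8.56, 7.92 and 6.38 in HAR123-KO, also without overlap, and its count was too low for an adjusted p (log2 fold change 0.999 ± 0.56, SE). Dgkg, a diacylglycerol kinase, had 171, 181, 175 and 205 in WT and 147, 153, 187 and 162 in HAR123-KO, with a log2 fold change of -0.17 ± 0.10 (SE, adjusted p = 0.700 by DESeq2). The median log2 fold change of the 5 was 0.03.

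**Figure D5:**
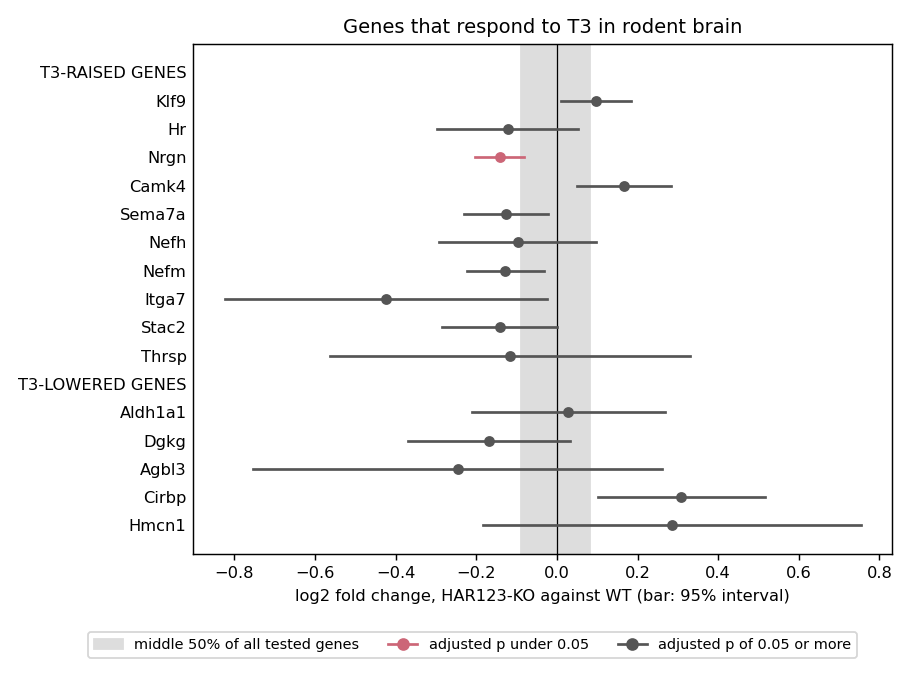
Log2 fold change of HAR123-KO against WT (points) with its 95% interval (bars) for genes known to rise or fall with T3 that had an adjusted p; the grey band holds the middle 50% of all tested genes. Nrgn, at -0.14, is drawn in red as called, and of the 10 T3-raised genes only Klf9 and Camk4 lie above 0.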

How the data were processed

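Total RNA of the frontal cortex, depleted of ribosomal RNA, was sequenced as paired-end directional libraries. The authors aligned reads with STAR 2.5.2b to GRCm38 (Ensembl annotation) and counted exons per gene with featureCounts, and the deposited values are raw read counts; strand and multimapping settings are not given in the sources used here. The table also gives exon lengths in bases. All 55536 identifiers matched GENCODE M21 with the same start and end, and symbols and 1-based coordinates were taken from there.

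Groups came from the sample titles. Genes were tested across the whole table with DESeq2 1.42.0 (R 4.3.3), the study's tool, using size factors by the median of ratios, a design of genotype alone, Wald tests and Benjamini-Hochberg adjustment over genes kept by the independent filter. Intervals are the log2 fold change with its normal 95% bounds. Genes without an adjusted p were left without one. Alternatives were edgeR 4.0.16 (quasi-likelihood), limma-voom (limma 3.58.1), TMM or protein-coding size factors, 2 filters, a replicate block and leaving out each library. Ratios were tested by two-sided exact permutation over the 70 assignments of 4 and 4 libraries. The scripts were tested on simulated data. Over nuclear protein-coding genes with at least 20 counts in a pair, the chi-square per degree of freedom ran from 1.21 to 1.30 within genotypes, above the 1 of sampling noise. Each library was treated as a separate replicate in the tests, but these values do not show that the libraries are separate animals. Intervals do not cover PCR copies.

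The 9 genes and all lists were chosen with earlier results of these data known. Named were the 9 genes, genes of the wider and T3 lists that were called (or the 3 smallest p-values where fewer than 3 were called), the 3 choroid plexus markers of highest count, the 3 profiles most like that of Ttr, and genes whose exons overlap the 9. The 1 called gene of the wider list is not reported here. Otx2, Kcne2, Per1, Mt2 and the other genes named outside this rule were chosen after their values were seen.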

Additional observations from a re-analysis of the deposited data

Results flagged for a closer look

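Some libraries stood off from the other 3 of their genotype by more than Dixon's 95% limit for the gap to the next value as a share of the range. This happened in 4 of the 36 groups of 4 examined, where chance, which sets apart about 1 in 20, gives 1.8, and in none of the 18 groups of the 9 thyroid hormone genes. Astrocyte markers summed to 25430 normalized counts in WT replicate 3, against 24732 to 24847 in the other WT libraries. Striatal projection neuron markers summed to 6582 in WT replicate 3, against 6794 to 6825, and to 8503 in HAR123-KO replicate 4, against 8679 to 8701. Cortical neuron markers summed to 30212 in HAR123-KO replicate 4, against 30505 to 30544. Without HAR123-KO replicate 4 the number of the 8 genes other than Ttr that were called was 0, as it was without WT replicate 3.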

How the results depend on the processing

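The number of the 8 genes other than Ttr with an adjusted p under 0.05 was 0 in all 15 alternatives, and the log2 fold change of each kept its sign in all 15. Over all genes, 38 passed an adjusted p under 0.05 with an absolute log2 fold change over 0.5, 73 did with edgeR, 9 with the replicate block, 3 with the stricter limits of 0.01 for the adjusted p and 1 for the fold change, and 11 to 44 without a library, with 18 without WT replicate 3 and 11 without HAR123-KO replicate 4. With no minimum fold change 215 passed, 331 with edgeR, 22 with the block and 133 to 185 without a library, with 133 without WT replicate 1 and 142 without HAR123-KO replicate 3. Of the wider thyroid hormone genes, 1 passed, 2 with edgeR, 0 with a minimum of 10 counts in 4 libraries, 0 without the independent filter, 0 with the block, and 0 to 1 without a library. The count of T3-raised genes went from 1 to 0 with the block (Nrgn, log2 fold change -0.14), and that of T3-lowered genes from 0 to 1 with edgeR. The Thra to Thrb difference was -0.24 with the block (exact permutation p = 0.125, the smallest 4 pairs allow) and -0.28 to -0.18 without a library. The log2 fold change of Slc13a4, 0.08, ran from -0.10 (without HAR123-KO replicate 2) to 0.20 (without HAR123-KO replicate 1). The cause of these changes was not tested. The replicate numbers do not pair the libraries: deviations of same-numbered libraries from their genotype means correlated at -0.02 to 0.02 over 8793 genes, and 1 of 4 numbers correlated best with its own. The alternatives for the genes other than the 9 were added after the data were seen. Low counts limited the choroid plexus markers, of which 16 of 19 had no adjusted p from DESeq2 and 12 of 19 none from edgeR. The DESeq2 filter, at a mean of 17.6 normalized counts, set which genes had one. Without that filter, F5 had an adjusted p of 0.000643 and Tmem72 one of 0.320 by DESeq2. The study listed Clic6, F5, Kl and Prlr among its differing genes of this tissue.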
